A study of Mus musculus with 12 samples.

Results

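The expression of 9 basement membrane genes was followed in differentiating F9 cells, a mouse teratocarcinoma line that turns into extraembryonic endoderm under retinoic acid. They were the collagen IV chains Col4a1 and Col4a2, the laminin chains Lama1, Lamb1 and Lamc1, the nidogens Nid1 and Nid2, the perlecan gene Hspg2, and Sparc. Every probe that the platform annotation gives one of these symbols was taken, which gave 14 of the 45281 probes on the array for 9 of the 11621 genes tested.

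The 12 arrays (Illumina MouseWG-6 v2) fell into 6 groups of 2, and the labels call the 2 arrays of a group biological replicates. Cells carrying the pRS-kdm3a knock-down construct were compared with control cells, whose Kdm3a expression is given as WT. Both kinds of F9 cell were sampled untreated (0 h), after 3 days with retinoic acid (72 h), and at 6 d, when retinoic acid alone for 3 days had been followed by 3 days of retinoic acid with cAMP. All groups are 1 cell line, no label says whether the knock-down cells are a clone or a pool, and nothing says that the replicates came from separate cultures, so p-values measure the spread between these arrays. Levels are log2 intensities after background correction and quantile normalization; a step of 1 is a doubling.

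A basement membrane is a thin sheet of matrix under epithelia and around the early embryo. Laminin trimers of an alpha, a beta and a gamma chain and a network of collagen IV trimers form its main layers, which nidogens and perlecan bridge. Parietal endoderm, the cell type that F9 cells approach under retinoic acid with cAMP, is known for secreting Reichert's membrane, a thick basement membrane built of laminin-111 (the products of Lama1, Lamb1 and Lamc1) and of collagen IV made from Col4a1 and Col4a2. Sparc encodes a calcium-binding glycoprotein that binds collagen IV.

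The genes lie on 8 chromosomes. In the RefSeq annotation of GRCm38.p6, Col4a1 is at chr8:11198423-11312889 and Col4a2 at chr8:11312805-11449287. The laminin chains are at chr17:67697127-67822645 (Lama1), chr12:31265146-31329644 (Lamb1) and chr1:153218922-153332786 (Lamc1). The nidogens are at chr13:13437602-13512275 (Nid1) and chr14:19751257-19811787 (Nid2), Hspg2 is at chr4:137468751-137570630, and Sparc is at chr11:55394159-55420080. The deposited tables give no probe positions, so which exon or UTR a probe reads is not stated here.

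Promoter windows of 250 bases before to 50 bases after the start were taken from RefSeq's table (GRCm38.p6) for Col4a1, Col4a2, Lamb1, Nid1, Hspg2 and Sparc. Lama1, Lamc1 and Nid2 had no entry. For Col4a1, Lamb1 and Hspg2 the start used (11312826, 31265293 and 137468803) lies inside the locus given above, which begins at 11312889, 31265146 and 137468751. The windows of 4 genes are shown. Col4a1 and Col4a2, whose changes were the largest apart from that of Lamb1, which is only bounded in knock-down cells, are read in opposite directions. The starts used for these 2 genes are 21 bases apart. Lamb1 was undetected before treatment in knock-down cells and detected after it, and the Sparc window held none of the words searched. The Col4a1 window (chr8:11312777-11313076, minus strand) and the Col4a2 window (chr8:11312555-11312854, plus strand) share 78 bases, and those of Lamb1 (chr12:31265043-31265342, plus strand) and Sparc (chr11:55420031-55420330, minus strand) follow. Capitals mark GGGCGG, the word bound by SP1, and CCAAT, the word bound by NF-Y, on either strand (on the other strand they read CCGCCC here, or for the second word ATTGG).
Col4a1: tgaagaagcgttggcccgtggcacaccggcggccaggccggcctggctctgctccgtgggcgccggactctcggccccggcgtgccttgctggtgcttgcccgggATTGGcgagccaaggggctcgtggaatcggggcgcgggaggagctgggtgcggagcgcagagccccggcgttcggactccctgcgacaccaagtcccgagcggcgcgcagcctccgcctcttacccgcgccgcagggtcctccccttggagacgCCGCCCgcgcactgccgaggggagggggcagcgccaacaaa
Col4a2: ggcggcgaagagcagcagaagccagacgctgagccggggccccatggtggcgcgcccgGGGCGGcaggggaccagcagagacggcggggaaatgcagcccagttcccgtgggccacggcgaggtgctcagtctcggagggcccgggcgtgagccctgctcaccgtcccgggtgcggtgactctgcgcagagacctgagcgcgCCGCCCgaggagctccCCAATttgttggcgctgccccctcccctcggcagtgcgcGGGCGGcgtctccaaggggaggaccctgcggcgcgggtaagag
Lamb1: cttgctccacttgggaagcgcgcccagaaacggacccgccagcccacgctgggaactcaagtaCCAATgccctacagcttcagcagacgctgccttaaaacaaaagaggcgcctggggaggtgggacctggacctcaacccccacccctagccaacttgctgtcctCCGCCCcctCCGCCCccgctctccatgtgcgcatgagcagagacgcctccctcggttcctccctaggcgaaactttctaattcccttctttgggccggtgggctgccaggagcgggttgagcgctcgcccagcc
Sparc: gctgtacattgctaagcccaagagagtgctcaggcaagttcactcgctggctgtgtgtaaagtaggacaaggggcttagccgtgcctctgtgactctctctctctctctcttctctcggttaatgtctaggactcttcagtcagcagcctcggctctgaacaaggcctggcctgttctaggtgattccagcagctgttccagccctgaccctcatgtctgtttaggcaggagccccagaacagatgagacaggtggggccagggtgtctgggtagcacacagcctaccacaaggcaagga

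Of the 6 windows 5 held GGGCGG, against 35.7% of 32851 RefSeq promoter windows of the same length. It stood 5 times in the Hspg2 window, 3 times in that of Col4a2, 2 times in that of Lamb1 and 1 time each in those of Col4a1 and Nid1. The match of Col4a1 and one of the matches of Col4a2 are the same site, chr8:11312812-11312817, inside the shared stretch. CCAAT stood 1 time each in the windows of Col4a1, Col4a2, Lamb1 and Nid1, and 37.4% of all windows held it. Of the words bound by GATA factors, none of the 6 windows held AGATAA (in 11.2% of all windows), TGATAA (in 9.1%), AGATAG (in 9.0%) or TGATAG (in 7.3%), and 29.8% of all windows held at least 1 of them. Nor did any of the 6 hold the nuclear receptor half-site AGGTCA (in 16.3%), the SOX word ACAAT (in 31.0%), the cAMP response half-site TGACG (in 20.8%) or the TATA box word TATAAA (in 13.6%). Each was searched on both strands with overlaps allowed. These are letters in short windows and not shown to be bound. GC made up 74.0% of the Col4a1 window, 73.7% of that of Col4a2, 70.3% of that of Hspg2 and 64.7% of that of Nid1. For Lamb1 it was 63.7% and for Sparc 55.3%, and the median over all windows was 52.7%. The shares of all windows given above were not matched for GC.

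Kdm3a had a normalized log2 intensity of 7.53 to 8.93 on the knock-down arrays, below every control array (9.12 to 9.98). Raw median intensities were 124.8 to 219.8, and 33.6% to 40.8% of probes had a detection p-value under 0.05 on an array. Replicate arrays correlated at 0.949 to 0.992 across the 21525 probes detected on at least 2 arrays. On probes detected nowhere, knock-down 0 h replicate 2, control 6 d replicate 2 and knock-down 6 d replicate 2 resembled each other (rank correlations of 0.395 to 0.427), and the 72 h arrays did too (0.434 to 0.510), whereas all other pairs gave 0.125 to 0.341. The first set is called the 3 similar arrays, and results that change when they are omitted are given both ways. The second set is the whole 72 h stage. An effect of those arrays therefore cannot be told apart from the stage in any comparison with 72 h. A change in these bulk RNA samples can come from more cells of a type or from more RNA per cell, which cannot be told apart.

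Of the 14 probes 13 were detected on at least 11 of the 12 arrays. The exception was the Lamb1 probe, which was below detection on both knock-down arrays and on 1 of 2 control arrays at 0 h. Where a gene had several probes, the brightest one stood for it.

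Between 0 h and 72 h 7 of 9 genes rose in both kinds of cell: Col4a1, Col4a2, Lama1, Lamb1, Lamc1, Nid1 and Sparc. Of all genes tested, 8.79% rose in knock-down cells and 8.11% rose in control cells at an adjusted p under 0.05 (limma, Benjamini-Hochberg over 11621 genes). The median change of the 9 genes was 2.29 in knock-down cells and 2.22 in control cells, beside a median of 0.00 and -0.02 over all genes. The 72 h arrays did not overlap the 0 h arrays for 8 of 9 genes in knock-down cells and 9 of 9 in control cells. The same held for 64.1% and 66.4% of all genes, so such separation is common with 2 arrays per group. At 6 d against 0 h it was 8 of 9 in each kind of cell, beside 54.7% and 59.7% of all genes. Hspg2 and Nid2 did not pass the threshold at 72 h in either kind of cell. Without knock-down 72 h replicate 1 the count in knock-down cells was 4 of 9.

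Apart from Lamb1, whose rise in knock-down cells has only a lower bound and cannot be ranked, the collagen IV genes had the largest changes. In knock-down cells Col4a1, which encodes the alpha-1 chain, had 9.66 and 9.19 (0 h), 15.03 and 14.72 (72 h) and 15.22 and 14.49 (6 d). In control cells Col4a1 had 9.04 and 8.94 (0 h), 15.01 and 15.11 (72 h) and 15.23 and 14.75 (6 d). Every treated array was far above every untreated one, and the 72 h and 6 d arrays overlapped. By 72 h Col4a1 had risen by 5.45 ± 0.29 (SE) in knock-down cells, a 43.6-fold change (adjusted p = 1.54e-06 in limma), and by 6.07 ± 0.29 in control cells, a 67.4-fold change (adjusted p = 5.32e-07). It ranked 7 and 5 among all genes by p-value in those comparisons.

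Col4a2 encodes the alpha-2 chain, which joins 2 alpha-1 chains in the common collagen IV trimer. In knock-down cells Col4a2 had 8.25 and 7.62 (0 h), 14.32 and 13.75 (72 h) and 14.93 and 13.95 (6 d). In control cells Col4a2 had 7.83 and 7.67 (0 h), 13.87 and 13.80 (72 h) and 14.81 and 14.06 (6 d). The 0 h arrays were again separate from all others. The rise by 72 h was 6.10 ± 0.37 in knock-down cells (68.7-fold) and 6.09 ± 0.37 in control cells (68.1-fold), with limma adjusted p-values of 2.86e-06 and 2.46e-06.

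Lama1 encodes the alpha-1 laminin chain of laminin-111, whose globular end binds receptors on cells. In knock-down cells Lama1 had 11.45 and 11.08 (0 h), 14.53 and 14.26 (72 h) and 15.18 and 14.56 (6 d). In control cells Lama1 had 10.84 and 10.70 (0 h), 14.27 and 14.36 (72 h) and 15.09 and 14.36 (6 d). Untreated arrays were the lowest of either kind, and 6 d arrays reached or passed those of 72 h. By 72 h it had risen by 3.13 ± 0.29 in knock-down cells (adjusted p = 6.33e-05 in limma) and by 3.54 ± 0.29 in control cells (adjusted p = 2.1e-05).

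Lamb1, the beta-1 chain, was the member with the lowest untreated signal. In knock-down cells Lamb1 had 4.70 and 5.73 at 0 h, both below detection, then 10.18 and 10.26 at 72 h, and 10.34 and 9.97 at 6 d. In control cells Lamb1 had 5.91 and 4.83 at 0 h, the second of them below detection, then 9.94 and 9.86 at 72 h, and 10.34 and 9.86 at 6 d. No 0 h array came near a treated one. Against the lowest signal that counts as detected, Lamb1 was at least 23.4-fold higher at 72 h than at 0 h in knock-down cells (fitted means differed by 5.00 ± 0.39, adjusted p = 1.75e-05 in limma). The control cells, with 1 of 2 untreated arrays detected, gave a rise of 4.53 ± 0.39 (adjusted p = 3.02e-05).

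Lamc1, the gamma-1 chain shared by most laminins, was already bright before treatment. In knock-down cells Lamc1 had 12.13 and 11.67 (0 h), 14.13 and 13.61 (72 h) and 14.49 and 13.57 (6 d). In control cells Lamc1 had 11.80 and 11.41 (0 h), 13.75 and 13.55 (72 h) and 14.35 and 13.47 (6 d). Arrays at 0 h stood below all others, and those of 72 h and 6 d overlapped. The rise by 72 h was 1.97 ± 0.37 in knock-down cells and 2.05 ± 0.37 in control cells, and limma gave adjusted p-values of 0.0047 and 0.00389. A second Lamc1 probe rose by 2.07 in knock-down cells and by 2.30 in control cells. Without knock-down 72 h replicate 1 the change in knock-down cells was 1.72 and missed the threshold (adjusted p = 0.0541).

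**Figure D1:**
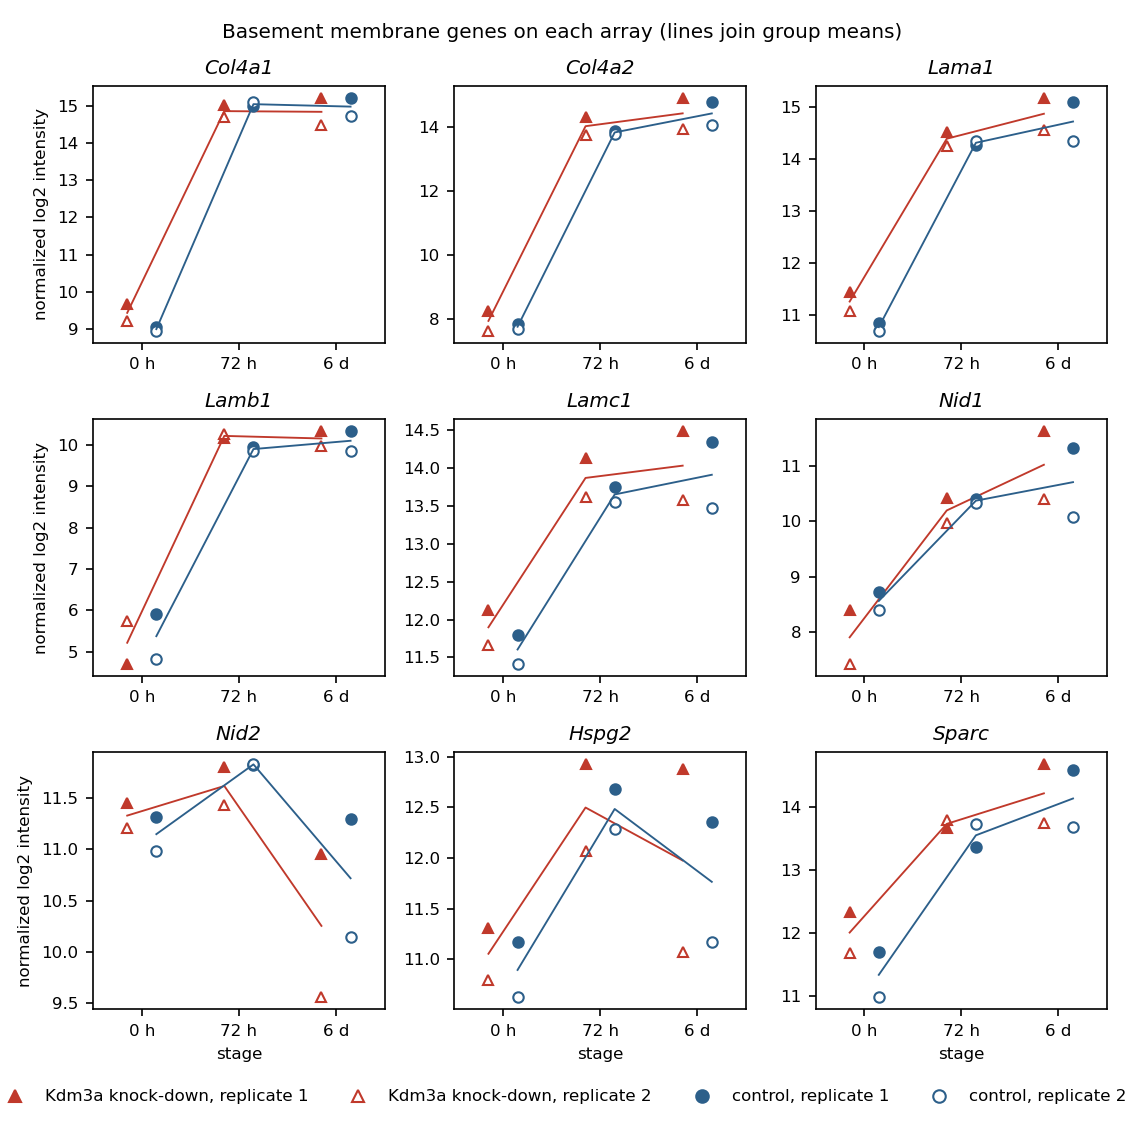
Normalized log2 intensity (vertical axis, own range in each panel) of the brightest probe of each gene on every array at 0 h, 72 h and 6 d. Triangles are knock-down arrays and circles control arrays, filled for replicate 1 and open for replicate 2, and lines join group means. Col4a1 climbs to between 14.72 and 15.11 on the 4 arrays at 72 h, while Nid2 is lowest on the 6 d arrays of replicate 2.

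Nid1 and Nid2 encode the nidogens, glycoproteins that bind both the laminin gamma-1 chain and collagen IV. The brightest probes of these 2 genes changed by different amounts. In knock-down cells Nid1 had 8.39 and 7.42 (0 h), 10.43 and 9.97 (72 h) and 11.64 and 10.41 (6 d). In control cells Nid1 had 8.73 and 8.40 (0 h), 10.41 and 10.34 (72 h) and 11.33 and 10.09 (6 d). Treated arrays were all above untreated ones, with 6 d and 72 h overlapping. By 72 h Nid1 had risen by 2.29 ± 0.48 in knock-down cells (adjusted p = 0.00831 in limma) and by 1.81 ± 0.48 in control cells (adjusted p = 0.0279).

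The Nid1 call rested on few arrays. In control cells it was lost without any 1 of the 4 arrays compared (adjusted p-values of 0.0813 to 0.148 in limma), and in knock-down cells without replicate 2 of 0 h or replicate 1 of 72 h (0.0764 and 0.0766). A dimmer Nid1 probe gave 1.09 in knock-down cells and 0.95 in control cells at 72 h, with adjusted p-values of 0.142 and 0.224 over all probes in limma.

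Nid2 took another course. In knock-down cells Nid2 had 11.45 and 11.21 (0 h), 11.80 and 11.44 (72 h) and 10.95 and 9.56 (6 d). In control cells Nid2 had 11.31 and 10.98 (0 h), 11.83 and 11.83 (72 h) and 11.29 and 10.14 (6 d). The lowest array of each kind of cell was 6 d replicate 2, while control 6 d replicate 1 stood above control 0 h replicate 2. At 72 h the difference from 0 h was 0.29 in knock-down cells, with a 95% interval of -0.68 to 1.26, and 0.68 in control cells, with an interval of -0.29 to 1.65 (limma adjusted p = 0.696 and 0.344). With the 3 similar arrays omitted the same difference in control cells passed the threshold (adjusted p = 0.0375 in limma).

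Hspg2 encodes perlecan, a heparan sulfate proteoglycan that links the laminin and collagen layers. In knock-down cells Hspg2 had 11.31 and 10.80 (0 h), 12.93 and 12.07 (72 h) and 12.88 and 11.07 (6 d). In control cells Hspg2 had 11.17 and 10.62 (0 h), 12.68 and 12.28 (72 h) and 12.35 and 11.18 (6 d). The 72 h arrays lay above the 0 h arrays, and at 6 d replicate 1 of each kind of cell stayed high while replicate 2 was near the 0 h level. The change by 72 h was 1.45 ± 0.56 in knock-down cells and 1.59 ± 0.56 in control cells, neither past the threshold in limma (adjusted p = 0.102 and 0.0824).

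The Hspg2 result depended on which arrays set the spread. Without either knock-down 6 d array the same differences gave adjusted p-values of 0.0328 in knock-down cells and 0.0239 in control cells in limma. Omitting the 3 similar arrays gave 0.00513 in control cells. A second Hspg2 probe changed by 1.88 in knock-down cells and by 2.00 in control cells, with adjusted p-values of 0.065 and 0.0577 over all probes in limma.

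Sparc had 3 probes, of which 2 were bright. In knock-down cells Sparc had 12.33 and 11.68 (0 h), 13.67 and 13.79 (72 h) and 14.68 and 13.75 (6 d). In control cells Sparc had 11.69 and 10.97 (0 h), 13.37 and 13.73 (72 h) and 14.58 and 13.69 (6 d). No untreated array reached a treated one. By 72 h Sparc had risen by 1.73 ± 0.40 in knock-down cells (adjusted p = 0.0135 in limma) and by 2.22 ± 0.40 in control cells (adjusted p = 0.00379). The other probes rose by 1.46 and 2.13 in knock-down cells and by 2.21 and 1.51 in control cells. The knock-down call was lost without replicate 2 of 0 h (adjusted p = 0.106 in limma), replicate 1 of 72 h (0.0708) or replicate 2 of 72 h (0.0857).

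**Figure D2:**
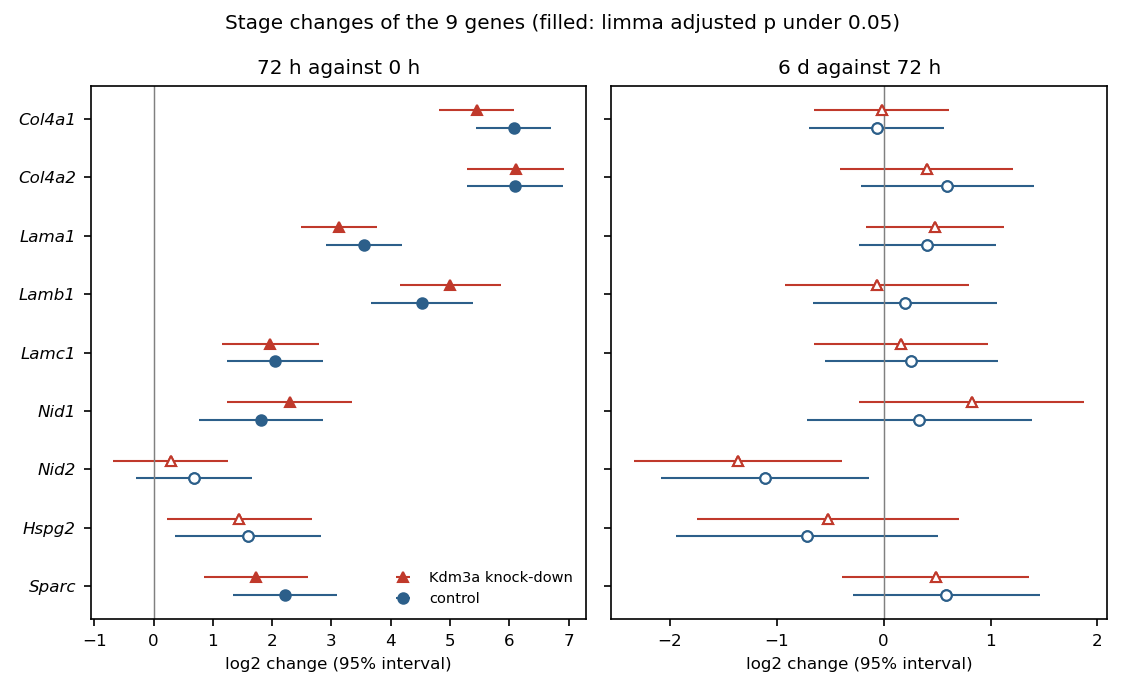
Log2 change (horizontal axis) of each gene with its 95% interval, at 72 h against 0 h on the left and at 6 d against 72 h on the right. Triangles are knock-down cells and circles control cells, filled where the limma adjusted p was under 0.05. On the left 7 genes are filled, from 1.73 (Sparc) to 6.10 (Col4a2) in knock-down cells, and none on the right.

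Scaling set the level of the smaller changes. When arrays were centred on their medians instead of quantile normalized, the median gene itself was 0.61 higher at 72 h than at 0 h in knock-down cells and 0.58 higher in control cells, and all 9 genes passed the threshold in both. Relative to that shift, the changes of the 9 genes ran from 0.30 (Nid2) to 6.04 (Col4a2) in knock-down cells and from 0.71 (Nid2) to 6.09 (Col4a2) in control cells. Under this scaling 4333 of all genes rose and 288 fell in knock-down cells, in place of 1021 and 884. In control cells 4009 rose and 216 fell, in place of 942 and 777.

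The further 3 days with cAMP brought no call among the 9 genes. The 72 h arrays enter both this comparison and the one before. At 72 h the raw Col4a1 signal was already 29798 to 38400, on arrays whose brightest probes read 37214 to 44038. Whether a further rise of such bright probes was compressed was not tested. At 6 d against 72 h, 0 of 9 passed the threshold in knock-down cells, where 3.83% of all genes did, and 0 of 9 in control cells, where 2.53% did. Only Nid2 had an unadjusted p under 0.05 in limma, in both kinds of cell, as had 2460 and 2186 of all genes. The changes ran from -1.36 to 0.83 in knock-down cells and from -1.11 to 0.60 in control cells.

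Nid2 had the largest of these differences. Its change from 72 h to 6 d was -1.36 in knock-down cells, with a 95% interval of -2.34 to -0.39, and -1.11 in control cells, with an interval of -2.08 to -0.14. Neither passed after adjustment (0.113 and 0.205 in limma). No 6 d array reached a 72 h array of its own kind, and the arrays of these stages did not overlap for 47.1% of all genes in knock-down cells and 53.5% in control cells. Median centring gave -1.79 in knock-down cells and -1.52 in control cells, beside a shift of the median gene of -0.42 and -0.45, and called both (adjusted p = 0.00132 and 0.00432 in limma). Without knock-down 6 d replicate 1 the change was -2.06 and was called in knock-down cells (adjusted p = 0.029).

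Nid1 differed from 72 h to 6 d by 0.83 in knock-down cells and by 0.34 in control cells (limma adjusted p = 0.351 and 0.754). With the 3 similar arrays omitted its change in knock-down cells was 1.44, past the threshold (adjusted p = 0.0131). Fitting those 3 arrays as a block gave 1.40 (adjusted p = 0.00804), and under that block Col4a2 also passed in control cells, with a change of 0.99 (adjusted p = 0.0437). On the dimmer Nid1 probe the 72 h and 6 d group means were 7.33 and 7.93 in knock-down cells and 7.64 and 7.35 in control cells. The control change of that probe was -0.29 (adjusted p = 0.781 over all probes in limma).

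The laminin chains changed little in this step. In knock-down cells Lama1 changed by 0.48, Lamc1 by 0.16 and Lamb1 by -0.06, and in control cells by 0.41, 0.26 and 0.20. Their 95% intervals all held 0. Sparc changed by 0.49 in knock-down cells and by 0.59 in control cells on its brightest probe. Its second bright probe changed by 0.97 and 1.02, with adjusted p-values of 0.0723 and 0.0734 over all probes in limma. The dimmest Sparc probe had group means of 7.89 at 72 h and 8.10 at 6 d in knock-down cells. In control cells that probe changed by 0.97 (adjusted p = 0.054 over all probes in limma).

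From 0 h to 6 d, 7 of 9 genes were higher in knock-down cells, where 12.1% of all genes rose, and 7 of 9 in control cells, where 12.2% rose. These were the 7 genes that had risen by 72 h. Apart from Lamb1, Col4a2 had the largest difference, 6.50 in knock-down cells (90.8-fold) and 6.68 in control cells (102.9-fold). Lamb1 was at least 22.4-fold higher at 6 d in knock-down cells. Nid1 was 3.12 higher in knock-down cells and 2.15 higher in control cells on its brightest probe. The dimmer Nid1 probe changed by 0.66 in control cells (adjusted p = 0.363 over all probes in limma). In knock-down cells the group means of that probe were 6.24 at 0 h and 7.93 at 6 d. The control call for Nid1 was lost without control 0 h replicate 2 or control 6 d replicate 1 (adjusted p = 0.0592 and 0.0661 in limma). Nid2 was the exception in direction, at -1.08 in knock-down cells and -0.43 in control cells, neither past the threshold (adjusted p = 0.107 and 0.532 in limma). Without knock-down 6 d replicate 1 its change in knock-down cells was -1.77 and was called (adjusted p = 0.0135 in limma), as it was with the 3 similar arrays as a block (-1.08, adjusted p = 0.0134). Without control 6 d replicate 2, and with the 3 similar arrays omitted, its control value was 0.15. Hspg2 passed in knock-down cells without knock-down 6 d replicate 2 (1.83, adjusted p = 0.0251 in limma). With the 3 similar arrays omitted, Hspg2 passed, at 1.57 in knock-down cells and 1.46 in control cells (adjusted p = 0.0272 and 0.0187).

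Knock-down of Kdm3a left no call among the 9 genes at any stage. Set against control cells, 0 of 9 passed at 0 h, where 0.0516% of all genes did, 0 of 9 at 72 h, where 0.00861% did, and 0 of 9 at 6 d, where 0% did. Averaged over the stages, 0 of 9 passed and 0.413% of all genes did. No member had an unadjusted p under 0.05 in any of these comparisons, and over all genes 947, 401, 912 and 1394 had one, at 0 h, 72 h, 6 d and on average.

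The intervals around the knock-down differences were wide. At 0 h the knock-down minus control differences ran from -0.66 (Nid1) to 0.67 (Sparc), at 72 h from -0.21 (Nid2) to 0.32 (Lamb1) and at 6 d from -0.46 (Nid2) to 0.31 (Nid1). Over the 3 stages their 95% intervals reached from -1.71 to 1.55. Averaged over the stages the differences ran from -0.17 (Nid1) to 0.31 (Sparc), with intervals within -0.78 to 0.84. The averaged difference was 0.04 for Col4a1, with an interval of -0.33 to 0.40, and 0.13 for Col4a2, with an interval of -0.34 to 0.59. With 2 arrays per group, true differences anywhere within these intervals remain compatible with the data. The fit did not pair replicates, so a shift shared by same-numbered arrays is part of the spread behind these intervals.

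The stage changes themselves were compared between the 2 kinds of cell by interaction terms. None of the 9 genes passed for the change from 0 h to 72 h, from 72 h to 6 d or from 0 h to 6 d, and 0% of all genes passed in each. For the first step the differences between the changes ran from -0.63 (Col4a1) to 0.48 (Nid1), and for the second from -0.26 (Lamb1) to 0.49 (Nid1). Over the whole course they ran from -0.65 (Nid2) to 0.97 (Nid1). No member had an unadjusted p under 0.05 in limma, and over all genes 409, 216 and 668 had one.

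**Figure D3:**
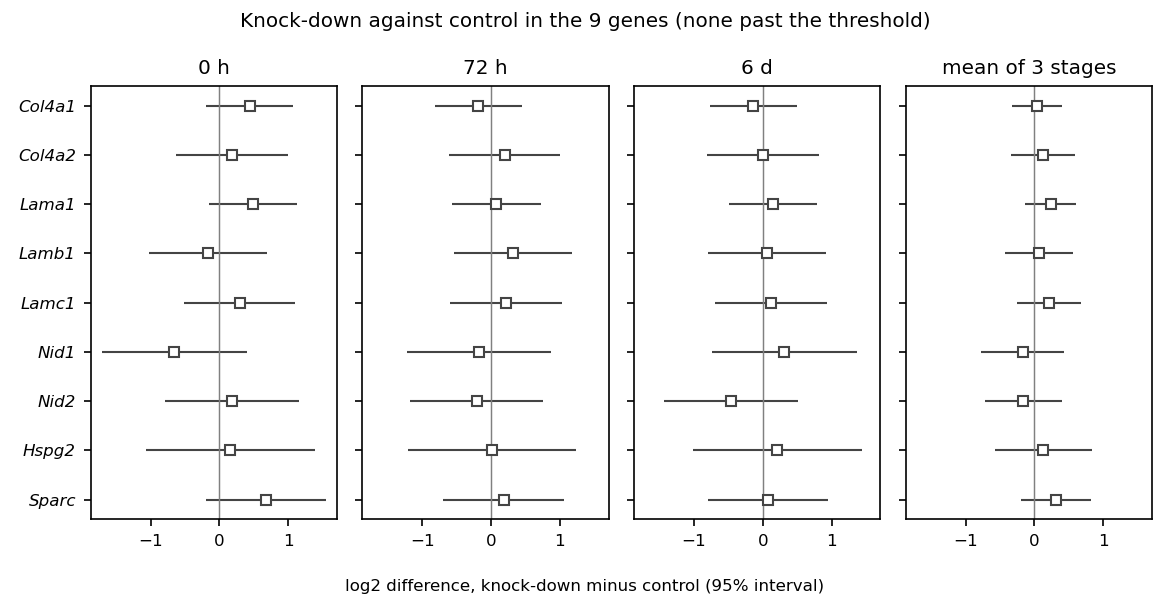
Log2 difference, knock-down minus control (horizontal axis), of each gene with its 95% interval at 0 h, 72 h and 6 d and averaged over the 3 stages. Every interval spans 0, and the averaged differences lie between -0.17 and 0.31.

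Pairs of members that share a structure were compared within each array, which cancels what the array does to both probes. The level of such a difference has no meaning between 2 probes, and only its change over time is read. Each gene was read by its brightest probe, so the dimmer Nid1 probe does not enter. Nid1 minus Nid2 rose at each step, by 1.57 from 0 h to 72 h and by 1.82 from 72 h to 6 d. On knock-down arrays it was -3.06 and -3.79 (0 h), -1.37 and -1.47 (72 h) and 0.69 and 0.86 (6 d). On control arrays it was -2.58 and -2.58 (0 h), -1.41 and -1.50 (72 h) and 0.04 and -0.06 (6 d). The 3 stages did not overlap, in either kind of cell.

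Each of these changes had an exact two-sided permutation p of 0.0556 within kinds of cell, the smallest that the 36 permutations allow, and 0.0889 after adjustment over the 8 comparisons made. Col4a2 minus Col4a1 changed by 0.34 from 0 h to 72 h (exact p = 0.167) and by 0.54 from 72 h to 6 d (exact p = 0.0556, adjusted 0.0889). In knock-down cells the 72 h arrays had already left the 0 h range (-0.71 and -0.96, against -1.41 and -1.58), and in control cells they had not (-1.14 and -1.30, against -1.21 and -1.26). Whether this step differs between the kinds of cell was not tested. Any compression of the brighter Col4a1 probe would not cancel in Col4a2 minus Col4a1, and it was not tested either.

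Among the laminin chains Lamc1 fell behind Lama1 by 1.33 on the log2 scale by 72 h (exact permutation p = 0.0556, adjusted 0.0889). From 72 h to 6 d this difference moved by -0.23, and Lamb1 minus Lama1 by -0.37 (exact permutation p = 0.167 and 0.111). The step of Lamb1 minus Lama1 from 0 h to 72 h is not read, since Lamb1 was below detection on 3 of 4 arrays at 0 h.

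**Figure D4:**
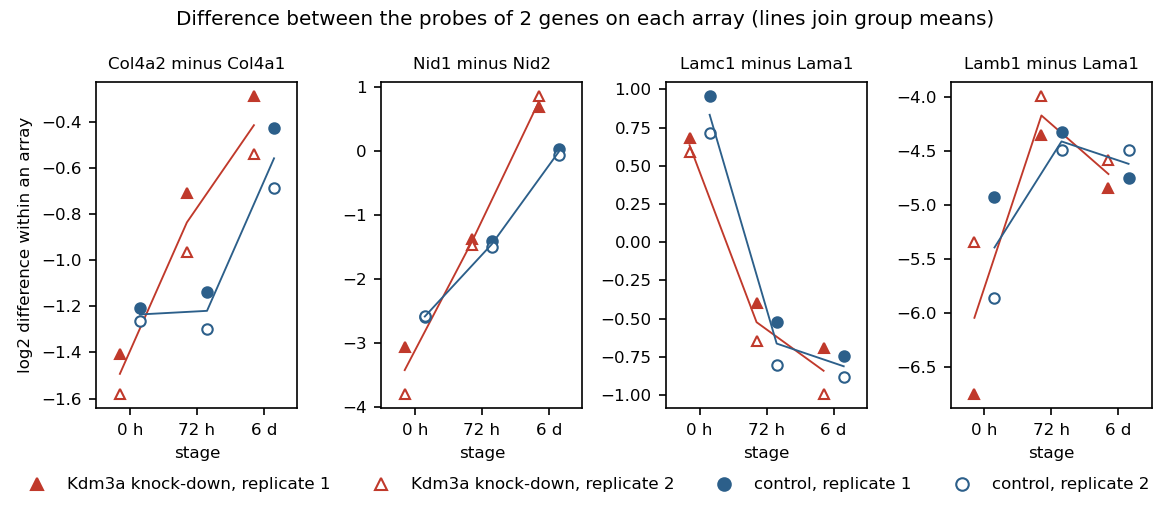
Difference in log2 intensity between the probes of 2 genes on the same array (vertical axis, own range in each panel) at 0 h, 72 h and 6 d. Triangles are knock-down arrays and circles control arrays, filled for replicate 1 and open for replicate 2, and lines join group means. Nid1 minus Nid2 climbs at both steps, with 72 h arrays between -1.50 and -1.37. In the Lamb1 panel 3 of 4 arrays at 0 h have Lamb1 below detection, so those points are not measured differences.

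Over the 12 arrays 7 of the genes varied closely together. The correlation of Col4a1 was 0.996 with Col4a2, 0.990 with Lama1, 0.983 with Lamb1, 0.966 with Lamc1, 0.941 with Sparc and 0.915 with Nid1. It was 0.753 with Hspg2 and -0.04 with Nid2. These values describe 12 arrays in 3 stages that share their normalization, and most of each is the step from 0 h to 72 h.

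The genes outside the 9 whose pattern over the 12 arrays was most like their mean were Flrt3 (r = 0.993), Pdia5 (0.993), Cyp26a1 (0.992), Plxna2 (0.990) and App (0.987). Cyp26a1 encodes the enzyme that clears retinoic acid, Pdia5 a protein disulfide isomerase of the endoplasmic reticulum, and Flrt3 and Plxna2 encode cell surface proteins of adhesion and guidance. With Col4a1 alone they were Cyp26a1 (0.996), Flrt3 (0.994), Fgf10 (0.992), Dab2 (0.991) and Hoxb4 (0.990). In control cells Cyp26a1 changed by 7.63 by 72 h and by -0.24 from 72 h to 6 d.

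Replicates differed in these genes together, most at 6 d. All 9 were higher on replicate 1 than on replicate 2, by a median of 0.93 in knock-down cells and 0.87 in control cells, while 46.4% and 45.8% of all genes were. The range was 0.37 (Lamb1) to 1.81 (Hspg2) in knock-down cells and 0.48 to 1.25 in control cells. At 0 h 8 of 9 were higher on replicate 1 in knock-down cells and 9 of 9 in control cells, with medians of 0.46 and 0.33, while 51.5% and 49.6% of all genes were. At 72 h 7 of 9 were in knock-down cells and 5 of 9 in control cells, with medians of 0.36 and 0.07. Replicate 2 of both 6 d groups is among the 3 similar arrays.

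Other matrix genes differed between the 6 d replicates mostly in the same direction. Of the receptors 12 of 12 were higher on replicate 1 in knock-down cells and 11 of 12 in control cells, and of the collagen maturation enzymes 11 of 13 and 13 of 13. Among other basement membrane components it was 9 of 14 in knock-down cells and 11 of 14 in control cells. It was 12 of 13 matrix proteases and inhibitors and 4 of 5 other collagen IV and laminin chains in each kind of cell. Of the primitive endoderm markers 2 of 7 were higher on replicate 1 in each kind of cell, and of the parietal endoderm markers 4 of 7 in each. Of the visceral endoderm markers 5 of 5 were in each kind of cell, with a median of 0.89 in both. Of the markers of undifferentiated F9 cells 1 of 8 was higher on replicate 1 in knock-down cells (median -1.16) and 2 of 8 in control cells (median -0.14). What sets these replicates apart was not tested.

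**Figure D5:**
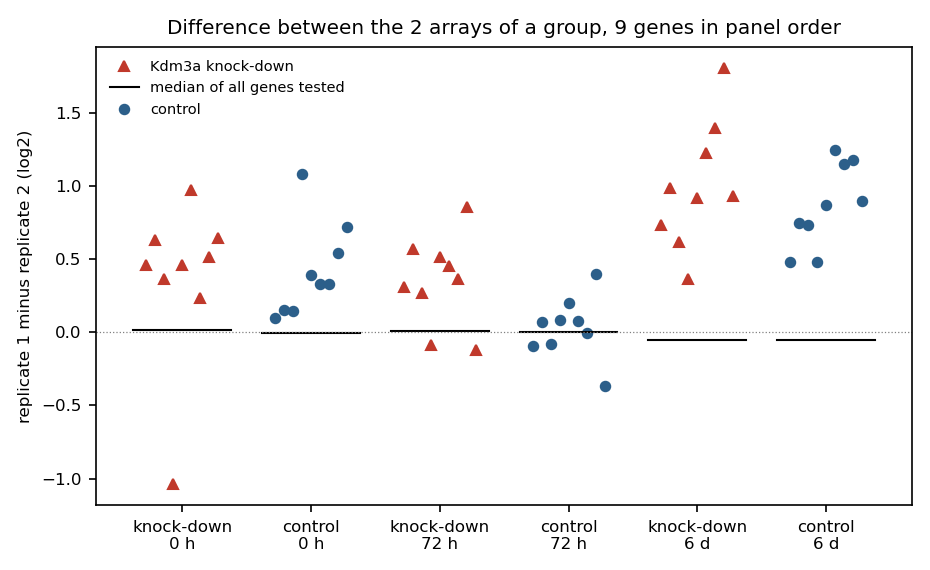
Replicate 1 minus replicate 2 of each group in log2 intensity (vertical axis) for the 9 genes, in the order Col4a1, Col4a2, Lama1, Lamb1, Lamc1, Nid1, Nid2, Hspg2, Sparc. Triangles are knock-down groups, circles control groups, and black bars the median of all genes tested. At 6 d all points lie above 0, between 0.37 and 1.81.

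Most other chains of the same families were not detected on both arrays of a group. Of 12 further collagen IV and laminin chain genes, 5 were tested, and none passed the threshold at 72 h in either kind of cell. Col4a3, Col4a4, Lama2, Lama4 and Lamc3 were in no group detected on both arrays. Col4a5 was 1.20 higher at 6 d than at 0 h in knock-down cells (adjusted p = 0.00774 in limma), at least 1.24-fold, and was the only one of the 5 to rise over the whole course in either kind of cell.

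Other basement membrane components rose in part. By 72 h 3 of 14 had risen in knock-down cells and 3 of 14 in control cells. Tinagl1, which encodes a secreted matrix protein, rose by 3.03 in knock-down cells, and was at least 7.77-fold higher in control cells. Fbln1, the fibulin-1 gene, rose by 2.06 in knock-down cells and by 2.00 in control cells. Spock1, which encodes a testican proteoglycan, was called from 72 h to 6 d, at least 1.74-fold higher in knock-down cells and 1.97 higher on the log2 scale in control cells. The median change of the 14 by 72 h was 0.42 in knock-down cells and 0.74 in control cells.

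The enzymes that fold, hydroxylate and export collagen had 6 of 13 risen by 72 h in knock-down cells and 8 of 13 in control cells, with medians of 1.10 and 1.50. P4ha2, a prolyl 4-hydroxylase subunit, rose by 4.20 in knock-down cells and by 4.63 in control cells. Plod2, a lysyl hydroxylase, rose by 1.30 in knock-down cells and by 2.37 in control cells. Serpinh1, the collagen chaperone HSP47, rose by 2.13 in knock-down cells. In control cells it was not among the 4 largest called changes of this list, so no control value is given. None of the 13 was called from 72 h to 6 d.

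Matrix proteases and their inhibitors had 5 of 13 risen by 72 h in knock-down cells and 4 of 13 in control cells, with medians of 1.01 and 0.91. Plat, the tissue plasminogen activator, was at least 37.4-fold higher in knock-down cells and at least 27.6-fold higher in control cells. Timp3 and Timp2, inhibitors of metalloproteinases, rose by 2.95 and 3.09 in knock-down cells and by 3.48 and 2.20 in control cells. Bmp1, which encodes a procollagen proteinase, rose by 1.35 in knock-down cells and by 1.95 in control cells.

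Of the receptors of basement membrane proteins 2 of 12 rose by 72 h in each kind of cell, near the 8.79% and 8.11% of all genes, and the median change was -0.26 in knock-down cells and 0.04 in control cells. Sdc2, the syndecan-2 gene, rose by 1.37 in knock-down cells and by 2.13 in control cells, and Itga5, the fibronectin receptor's alpha chain, by 1.47 and 1.80. Sdc4 was the one called from 72 h to 6 d, by 1.58 in knock-down cells and by 1.63 in control cells. None of these 5 lists had a gene called in knock-down against control cells at any stage.

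The endoderm course of the cells was read from marker lists. All 7 primitive endoderm markers tested rose by 72 h in both kinds of cell. Gata6, a transcription factor of primitive endoderm, was the one gene of all the lists called in knock-down against control cells at 0 h, at least 2.65-fold higher in knock-down cells (adjusted p = 0.0434 in limma), and none was called at 72 h or 6 d. Dab2, an endocytic adaptor, rose by 5.53 in knock-down cells and was at least 73.1-fold higher in control cells. Of 7 parietal endoderm markers 5 rose from 72 h to 6 d in each kind of cell, where 2.3% of all genes rose in knock-down cells and 1.54% in control cells. Fst, the follistatin gene, rose by 4.22 in knock-down cells and by 4.63 in control cells, and Pth1r, the receptor of parathyroid hormone-related protein, by 2.83 and 2.71. Of 8 markers of undifferentiated F9 cells 5 fell by 72 h in knock-down cells, where 7.61% of all genes fell, and 4 in control cells, where 6.69% did. Their summed level in knock-down cells was 15.5 to 15.5 at 0 h, 15.3 to 15.3 at 72 h and 14.7 to 15.3 at 6 d. In control cells it was 15.6 to 15.7, 15.6 to 15.8 and 15.4 to 15.5 (log2 of the summed linear levels), with no drop by 72 h. All but Fgf4 stayed detected on both arrays of every group.

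Markers of other cell types moved too. Their summed levels cover the members of each list that were tested. The summed level of 7 primitive endoderm markers was 8.27 to 8.56 at 0 h, 13.6 to 13.6 at 72 h and 13.5 to 13.6 at 6 d in knock-down cells, against 7.73 to 7.76, 14.0 to 14.2 and 14.1 to 14.2 in control cells (log2 of the summed linear levels). That of 7 parietal endoderm markers was 9.83 to 9.92 at 0 h, 12.4 to 12.4 at 72 h and 13.6 to 14.0 at 6 d in knock-down cells, against 10.1 to 10.2, 12.3 to 12.4 and 13.7 to 14.0 in control cells (log2 of the summed linear levels). For 8 visceral endoderm markers, of which Afp, Apoa1 and Apob were in no group detected on both arrays, it was 7.52 to 8.24 at 0 h, 9.82 to 10.0 at 72 h and 9.12 to 10.1 at 6 d in knock-down cells, against 7.76 to 7.77, 10.6 to 11.0 and 10.6 to 11.4 in control cells (log2 of the summed linear levels). For 8 fibroblast and mesenchyme markers, with Col1a1, Pdgfrb and Postn likewise, it stayed between 8.15 and 8.73. For 5 endothelium markers, with Kdr and Emcn likewise, it was 7.79 to 8.23 at 0 h, 8.21 to 8.46 at 72 h and 8.69 to 9.56 at 6 d in knock-down cells. In control cells it was 7.83 to 7.95, 8.51 to 8.58 and 8.53 to 9.26. From 72 h to 6 d Tek was the one endothelium marker called, rising by 2.11 in knock-down cells and by 1.65 in control cells. By 72 h 3 of 5 visceral endoderm markers tested had risen in knock-down cells and 4 of 5 in control cells. Of 4 endothelium markers tested 2 had risen in knock-down cells and 1 in control cells, and Pecam1 had fallen in both (log2 changes of -1.42 in knock-down cells and -0.97 in control cells). Of 6 fibroblast and mesenchyme markers none had risen, while Thy1 and Col1a2 had fallen in knock-down cells and Thy1 in control cells. The blood markers on the array, Ptprc and Lyz2, were not detected on both arrays of any group and not tested. The part of these cell types in the changes of the 9 genes was not tested.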

How the data were processed

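Gene expression in 12 samples of F9 cells was measured on Illumina MouseWG-6 v2 arrays. The authors deposited non-normalized intensity values per probe with a detection p-value for each array, per the file headers; no source used here names the software that summarised the beads. They also deposited a processed table of intensity values on a linear scale, with column medians of 184.1 to 184.4, whose columns share 1 distribution; it served as an alternative.

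Background was removed with nec from limma (limma 3.58.1, R 4.3.3; offset 16), and the values were taken to log2 and quantile normalized. Probes with a detection p-value under 0.05 on at least 2 arrays were kept (21525). By platform annotation 34885 probes carry 1 gene symbol, 18 carry more than 1 and 10378 carry none; the brightest probe stood for each of 11621 genes. All 12 arrays were fitted with a mean per group (lmFit and eBayes, 6 residual and 11.0 total degrees of freedom). P-values were adjusted by Benjamini-Hochberg over all genes in each comparison, and an adjusted p under 0.05 was a call. A bound ("at least") is given where a group was undetected on both arrays: it sets the bright group's mean against the lowest detected signal. The number of arrays limits the precision. Pair differences were tested by exact permutation within kinds of cell.

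Named were all 9 genes, up to 4 called genes of each related list per comparison by size of change, and the 5 genes most like the members' mean and Col4a1. The members and the lists were chosen with earlier results of these data known. Promoters came from RefSeq's table. Alternatives were no background correction, an offset of 50, median centring, the processed table, other probe filters, the mean of a gene's probes, adjustment over all probes, only the arrays compared, a replicate block and leaving out each array.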

Additional observations from a re-analysis of the deposited data

How the results depend on the processing

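Of 63 changes of single genes (9 genes in 6 stage comparisons and in the averaged knock-down comparison), all 63 kept their direction and their side of the threshold with no background correction, with an offset of 50, with the authors' processed table, with either probe filter and with adjustment over all probes. The mean of a gene's probes lost 1 call, Nid1 in control cells at 72 h (1.38, adjusted p = 0.0604 in limma). Over the 12 fits that each left out 1 array, 710 of 756 changes kept direction and side, 12 lost a call, 7 gained one and 27 turned in sign, all 27 among changes that were not called. Values near 0, 2 arrays per group and dim signals such as that of Lamb1 at 0 h limit what can be read.

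Groups share replicate numbers, and 7 of 15 pairs of groups had same-numbered deviations correlated over 0.1 (-0.11 to 0.54). These held every pair among the 0 h and 6 d groups (0.14 to 0.54, the highest between the 6 d groups). Pairs with a 72 h group gave -0.11 to 0.28, and the main fit did not take the numbers as pairs. A shift shared by same-numbered 0 h and 6 d arrays therefore stays in the spread of that fit. With the replicate block 59 of 63 kept their call. It called Nid2 at 6 d in knock-down cells against 72 h (-1.36, adjusted p = 0.0404 in limma) and against 0 h (-1.08, adjusted p = 0.0353), and Hspg2 at 72 h in knock-down and control cells (adjusted p = 0.0104 and 0.00706). A fit of only the arrays compared called Hspg2 at 72 h in knock-down and control cells (adjusted p = 0.0301 and 0.00355) and Nid2 in control cells (0.0357). The count at 6 d against 72 h in knock-down cells was 1 under the block, under median centring, and with the 3 similar arrays left out or blocked, the last 2 chosen after seeing the data. In control cells it was 1 under median centring and under that 3-array block.

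At 6 d against 72 h these changes that were not called turned in sign. With median centring Col4a1 was 0.19 in knock-down cells and 0.27 in control cells, Lamc1 was -0.018 in knock-down cells, and Lamb1 and Nid1 were -0.33 and -0.15 in control cells. Without the 3 arrays Col4a1 was 0.35 in knock-down cells and 0.18 in control cells, and Lamb1 and Hspg2 were 0.12 and 0.38 in knock-down cells. With the 3-array block Col4a1 was 0.26 in knock-down cells and 0.21 in control cells, and Hspg2 was 0.060 in knock-down cells. Nid2 turned to -0.18 at 72 h against 0 h in knock-down cells with that block, and at 6 d against 0 h in control cells to 0.15 without the 3 arrays and 0.034 with the block. In the averaged knock-down comparison Lamb1 was -0.12 without the 3 arrays and Nid1 0.018 with the block. The cause was not tested.

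Leaving out 1 array at a time gave 4 to 8 genes called at 72 h and 0 to 1 at 6 d against 72 h in knock-down cells. At 6 d against 72 h Col4a1 ran from -0.39 to 0.35, Col4a2 from -0.089 to 0.89, Lamb1 from -0.25 to 0.12, Lamc1 from -0.30 to 0.62 and Hspg2 from -1.43 to 0.38 in knock-down cells. In control cells Col4a1 ran from -0.31 to 0.18, Lamb1 from -0.038 to 0.44, Lamc1 from -0.18 to 0.70 and Nid1 from -0.29 to 0.96, and Nid2 at 6 d against 0 h from -1.01 to 0.15. In the averaged knock-down comparison Col4a1 ran from -0.085 to 0.16, Col4a2 from -0.037 to 0.29, Lamb1 from -0.11 to 0.25, Nid1 from -0.38 to 0.035, Nid2 from -0.40 to 0.068 and Hspg2 from -0.17 to 0.43. Between knock-down and control at 6 d the lowest of the 9 differences ran from -1.16 to 0.23 and the highest from -0.18 to 1.11, and the highest difference between the 72 h to 6 d changes from -0.13 to 1.11.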
